A study of Mus musculus with 6 samples.

Results

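The troponin genes encode the calcium switch of striated muscle, and 8 of them (Tnnc1, Tnnc2, Tnni1, Tnni2, Tnni3, Tnnt1, Tnnt2 and Tnnt3) were examined among 23057 annotated mouse genes. They were taken by name, not by a threshold on a measured value. Chromatin came from cultured myotubes, the multinucleate cells that form when myoblasts fuse. The myoblasts were primary cells from limb muscle of wild-type C57BL/6 fetuses at embryonic stage E18.5. They had been passaged 17 times and were kept for 48 hours in medium with 2% horse serum. Every library came from these cells, so there was no knockout, other fibre type or second condition, and each comparison was between an immunoprecipitation (ChIP) and input DNA. The 3 groups were Sox6, a transcription factor of the SRY-related HMG-box family (antibody ab30455), RNA polymerase II, or Pol II (antibody ab5408), and input DNA without antibody, each with 2 libraries. The study describes the 2 experiments as independent, but the labels do not say whether they came from separate cultures. Each p-value of the model fits therefore measures a spread between these libraries, pooled with that of other genes or peaks. At start sites and common peaks the pooled spread set the standard error almost alone, so it is not the spread at a single gene.

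Troponin consists of 3 subunits on the actin thin filament. Troponin C binds calcium, troponin I inhibits the interaction of actin with myosin, and troponin T anchors the complex to tropomyosin. Each subunit has isoforms tied to muscle type: Tnnc1 is used in slow and cardiac muscle and Tnnc2 in fast muscle, while Tnni1 and Tnnt1 are the slow skeletal, Tnni2 and Tnnt3 the fast skeletal, and Tnni3 and Tnnt2 the cardiac isoforms. Fetal muscle is known to use several isoforms that are later restricted, Tnnt2 among them. The genes for troponin I and troponin T lie in neighbouring pairs in the mouse genome, whereas the genes for troponin C stand alone.

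The Sox6 libraries held 2985437 and 1468604 mapped reads, the Pol II libraries 1538757 and 2762155, and the input libraries 21973495 and 24249850. A gene body of a few kb therefore held only a few Sox6 reads unless it was enriched, whereas input was counted with more precision. All 12 skeletal muscle marker genes were higher in Pol II than in input over their bodies, and their summed level was 208 and 222 reads per kb per 1000000 mapped reads (RPKM) in the 2 Pol II libraries against 8.12 and 8.45 in input. Over all 20991 genes tested, 39.0% were higher and 24.2% lower. None of 8 fibroblast markers was higher and 6 were lower, and of 6 cardiomyocyte markers 1 (Nppa, natriuretic peptide A) was higher and 1 lower. Of 2 blood markers tested Cd68 was higher and Ptprc lower, of 6 neuron or glia markers 1 (Gfap) was higher and 3 were lower, and of 3 hepatocyte markers 0 were higher and 1 was lower. The part of other cells in the signal was not tested.

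Pol II occupied 7 of the 8 troponin genes at levels among the highest in the genome, and the cardiac gene Tnni3 stood at the input level. In the comparison over gene bodies, 39.0% of 20991 genes tested were higher in Pol II than in input and 24.2% lower (limma, Benjamini-Hochberg adjusted p under 0.05), and 7 of 8 troponin genes were higher. Those 7 ranked between 43 and 284 by the log2 difference of Pol II and input, and the median over all genes stood at 0.18. When the libraries were scaled to bins of background instead of to all mapped reads, the median moved to 1.48, 63.0% of genes were called higher and 2.07% lower, and Tnni3, at 1.61 (adjusted p = 0.010 by limma), was called as well. Differences are therefore read relative to the median gene, and Tnni3 lay close to it under either scaling.

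The slow and cardiac troponin C gene Tnnc1 (chromosome 14, 32021498 to 32024915, forward strand) had 34.6 and 38.2 RPKM of Pol II over the gene body, the highest mean of the 8 with the models used here, against 0.812 and 0.748 in input. The log2 difference was 5.54 ± 0.15 (SE, n = 2 against 2, adjusted p = 7.07e-09 by limma). The fast gene Tnnc2 (chromosome 2, 164602661 to 164605241, reverse strand) had 23.7 and 34.2 RPKM, against 0.741 and 0.959 in input, and its log2 difference was 5.07 ± 0.23 (adjusted p = 1.2e-07 by limma). Both Pol II replicates of Tnnc1 lay above both of Tnnc2, by a margin smaller than the spread of either gene. The cell cycle gene Ube2c, which encodes a ubiquitin-conjugating enzyme, overlaps Tnnc2, so reads in the shared stretch cannot be told apart.

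Among the inhibitory subunits, the slow isoform Tnni1 (chromosome 1, 137695979 to 137707566, forward strand) had 34.5 and 37.6 RPKM of Pol II, against 0.876 and 0.872 in input, with a log2 difference of 5.36 ± 0.09. The fast isoform Tnni2 (chromosome 7, 149627713 to 149630315, forward strand) had 16.7 and 17.9 RPKM against 0.647 and 0.808, a log2 difference of 4.57 ± 0.22. Adjusted p-values by limma were 1.1e-09 and 1.7e-07. The Pol II replicates of Tnni1 lay entirely above those of Tnni2. The cardiac isoform Tnni3 (chromosome 7, 4469907 to 4474130, reverse strand) held 3 and 5 Pol II reads in its body, or 0.462 and 0.429 RPKM, against 0.388 and 0.420 in input. Its log2 difference of 0.30 ± 0.45 did not pass the test (adjusted p = 0.59 by limma). With the reads of both replicates summed, Tnni3 had a Pol II to input ratio of 1.09, with a 95% exact interval of 0.454 to 2.25 that covers counting error only. PCR copies were not marked with molecular identifiers, which such intervals do not cover.

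Among the tropomyosin-binding subunits, the fast isoform Tnnt3 (chromosome 7, 149684741 to 149701913, forward strand) had 28.0 and 29.9 RPKM of Pol II, against 0.700 and 0.809 in input. The cardiac isoform Tnnt2 (chromosome 1, 137737452 to 137748837, forward strand) had 21.7 and 21.1 RPKM against 0.735 and 0.837. The slow isoform Tnnt1 (chromosome 7, 4456172 to 4467606, reverse strand) had 9.60 and 10.3 RPKM against 0.700 and 0.728. The log2 differences were 5.26 ± 0.10 for Tnnt3, 4.77 ± 0.11 for Tnnt2 and 3.80 ± 0.12 for Tnnt1, with adjusted p-values by limma of 1.5e-09, 2.9e-09 and 1.5e-08. These 3 troponin T genes did not overlap in their Pol II replicates. Tnnt3 shares part of its span with the annotated gene Gm14492, whose reads were not separated from its own.

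In order of the mean Pol II level the genes were Tnnc1, Tnni1, Tnnc2, Tnnt3, Tnnt2, Tnni2, Tnnt1 and Tnni3. The replicate ranges of Tnnc1 and Tnni1 overlapped, as did those of Tnnc2 and Tnnt3, and the other neighbours in the order were apart. With 2 libraries a gene, an exact permutation test between neighbours cannot go below p = 0.33, so the order is a description. It also rests on the gene models: with the longest annotated model of each gene the mean level was 6.76 RPKM for Tnnc1 and 14.4 RPKM for Tnni1, and their log2 differences of 3.22 and 4.10 placed Tnnc1 below all other occupied genes, while the values of the other 6 genes did not move. The housekeeping gene Actb, which encodes cytoplasmic actin, gives a rough scale: Tnnc1 had 131% and 107% of its Pol II level in the 2 libraries, Tnnt1 36.3% and 28.7%, and Tnni3 1.75% and 1.197%. These percentages do not take input into account, which was low and uneven at Actb, 0.263 and 0.634 RPKM. Over input the order turned, with a mean Pol II level of 69.4-fold at Actb and 46.7-fold at Tnnc1. The plot of levels by library shows the spread.

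**Figure D1:**
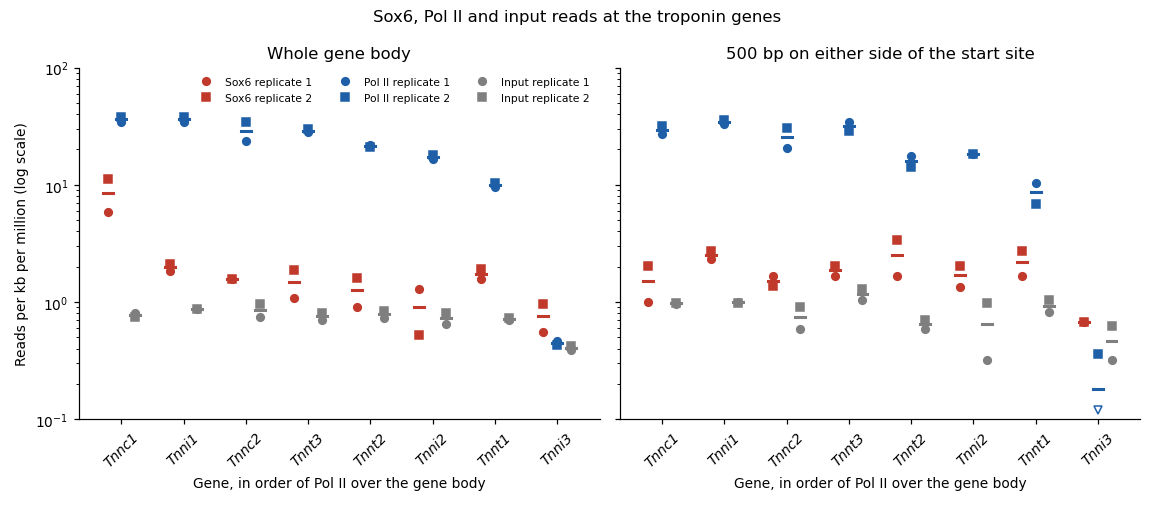
RPKM (log scale) of Sox6 (red), Pol II (blue) and input (grey) over the gene body (left) and in the 1000 bp around the annotated start site (right) of the 8 troponin genes. Circles are replicate 1, squares replicate 2, bars the mean of both, and the open triangle marks a library with 0 reads. Pol II lies at 9.60 RPKM or more over the body of every gene but Tnni3, where it meets the input.

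The start sites gave the same division. In the 1000 bp around the start, Pol II reads numbered 42 and 88 at Tnnc1, 32 and 84 at Tnnc2, 51 and 99 at Tnni1, 28 and 51 at Tnni2, 53 and 79 at Tnnt3, 27 and 39 at Tnnt2 and 16 and 19 at Tnnt1. Tnni3 had 0 and 1. Of 18746 start sites tested, 47.3% were higher in Pol II than in input, and among the troponin genes 7 of 8 were. The log2 differences ran from 3.21 ± 0.36 at Tnnt1 (adjusted p = 1.9e-17 by limma) to 5.09 ± 0.27 at Tnni1 (adjusted p = 2.3e-74), beside a median of 1.42 over all start sites. Tnni3 stood at -0.15 ± 0.91, and its summed ratio of Pol II to input was 0.489, with a 95% exact interval from 0.0118 to 3.02.

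Pol II was present along the troponin genes and not only at their starts. Per the study, its Pol II antibody binds a phosphorylated form regarded as active in transcription, so these densities need not be those of all Pol II. Without the first 500 bp the mean level over the body was lower at every occupied gene but Tnnt2, most at Tnnc2 (28.9 to 25.1 RPKM). The density in the start window divided by that in the rest of the body lay between 0.657 and 1.26 in both replicates of the 7 occupied genes. That window takes in 500 bp before the start, so this ratio can understate Pol II in the first 500 bp of a gene. A Pol II log2 difference above 3.5 was found in 393 genes, all of them called and the 7 among them. Of these, 312 had a body longer than 1 kb, and their median ratio was 0.947, with quartiles of 0.582 and 1.44. Pol II was also present past the annotated ends. In the next 2 kb its density was 1.27 and 1.31 times that of the body at Tnnc1 and 1.79 and 1.44 times at Tnnt1, and between 0.757 (Tnni2, replicate 2) and 1.16 (Tnnt3, replicate 1) at the other 5 occupied genes, beside a median of 0.908 (quartiles 0.635 and 1.19) over all 393 genes. The peaks that the peak caller listed for Pol II covered between 49.4% (Tnnt1) and 92.3% (Tnnt2) of the 7 occupied genes in replicate 1, and between 66.2% (Tnnt1) and 100% (Tnnt2) in replicate 2. Tnni2 was covered to 55.3% and 84.7%. None overlapped Tnni3 in either replicate.

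The annotations disagree on where Tnnt2 starts. The GENCODE model begins at 137737452 and is not marked complete. Of the RefSeq starts, placed in the same build by exact match of their promoter sequence, the first lies at 137732911, so that the GENCODE model begins 4541 bp downstream of it. Around that RefSeq start the Pol II libraries held 64 and 79 reads and input 17 and 27, a summed ratio of 34.9 (95% exact interval 24.8 to 50.2), above the 23.6 (15.1 to 37.7) at the GENCODE start, although the intervals overlap. Taken from the first RefSeq start to the end, Tnnt2 had 24.7 and 24.4 RPKM of Pol II. RefSeq starts of the other matched genes (Tnnc1, Tnnc2, Tnni1, Tnni3 and Tnnt1) lay at most 109 bp from the ones used. Tnni2 and Tnnt3 were not matched.

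The longest annotated model of Tnni1 begins at 137679642, or -16337 bp from the start used here, where Pol II had 0 and 1 reads and input 11 and 12. At the start used here, 19 bp from that of RefSeq, Pol II had 51 and 99. At Tnnt3 an inner annotated start, 2781 bp into the gene, held 72 and 107 Pol II reads, more than the 53 and 79 at the first start. Pol II reads from a start inside a transcribed gene cannot be told apart from those of elongating polymerase.

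The neighbouring pairs differed in how Pol II occupied their members. Tnni1 and Tnnt2 are 29885 bp apart (between the GENCODE models) and both were occupied. The gene between them, Lad1, which encodes an anchoring filament protein of epithelia, was not: its log2 Pol II difference was -0.04 ± 0.21 (adjusted p = 0.88 by limma). The whole stretch between the models still had 11.1 and 11.3 RPKM of Pol II, against 0.742 and 0.763 RPKM of input, and it includes the 4541 bp that follow the first RefSeq start of Tnnt2. Tnnt1 and Tnni3 lie only 2300 bp apart and are read in the same direction, with Tnni3 upstream. Tnnt1 had 9.60 and 10.3 RPKM of Pol II and Tnni3 0.462 and 0.429, and the stretch between them had 3.96 and 2.52. Tnni2 and Tnnt3 are separated by 54425 bp that include Lsp1, a leukocyte actin-binding protein gene with a log2 Pol II difference of 2.60 ± 0.09, and both troponin genes exceeded it. That stretch had 4.85 and 4.59 RPKM of Pol II.

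Sox6 peaks lay at the slow and cardiac loci. Of the 1066 peaks common to both Sox6 experiments, 6 were in or within 20 kb of a troponin gene: 2 at Tnnc1, 2 at Tnni1, 1 at Tnnt2 and 1 in Tnnt1, which is also the peak nearest to Tnni3. So 5 of 8 troponin genes had a common peak within that distance, against 4.27% of all 23057 genes, and the fast genes Tnnc2, Tnni2 and Tnnt3 had none. The single-experiment lists, with 2888 and 1734 peaks, added 3 sites that were found in the first experiment only. None of the 3 lists had a peak within 20 kb of Tnnc2 or Tnni2. Because neighbouring troponin genes share flanks, the genes are not independent of each other. Common peaks within 20 kb were not particular to the troponin genes or to slow and cardiac isoforms. Among other sarcomere genes, Actc1, Tpm1, Myh7 and the fast myosin heavy chain genes Myh1 and Myh2 also had them, while Acta1, Tpm2 and Myh4 did not. The tracks of reads along the slow and cardiac loci show the peaks beside the Pol II signal.

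**Figure D2:**
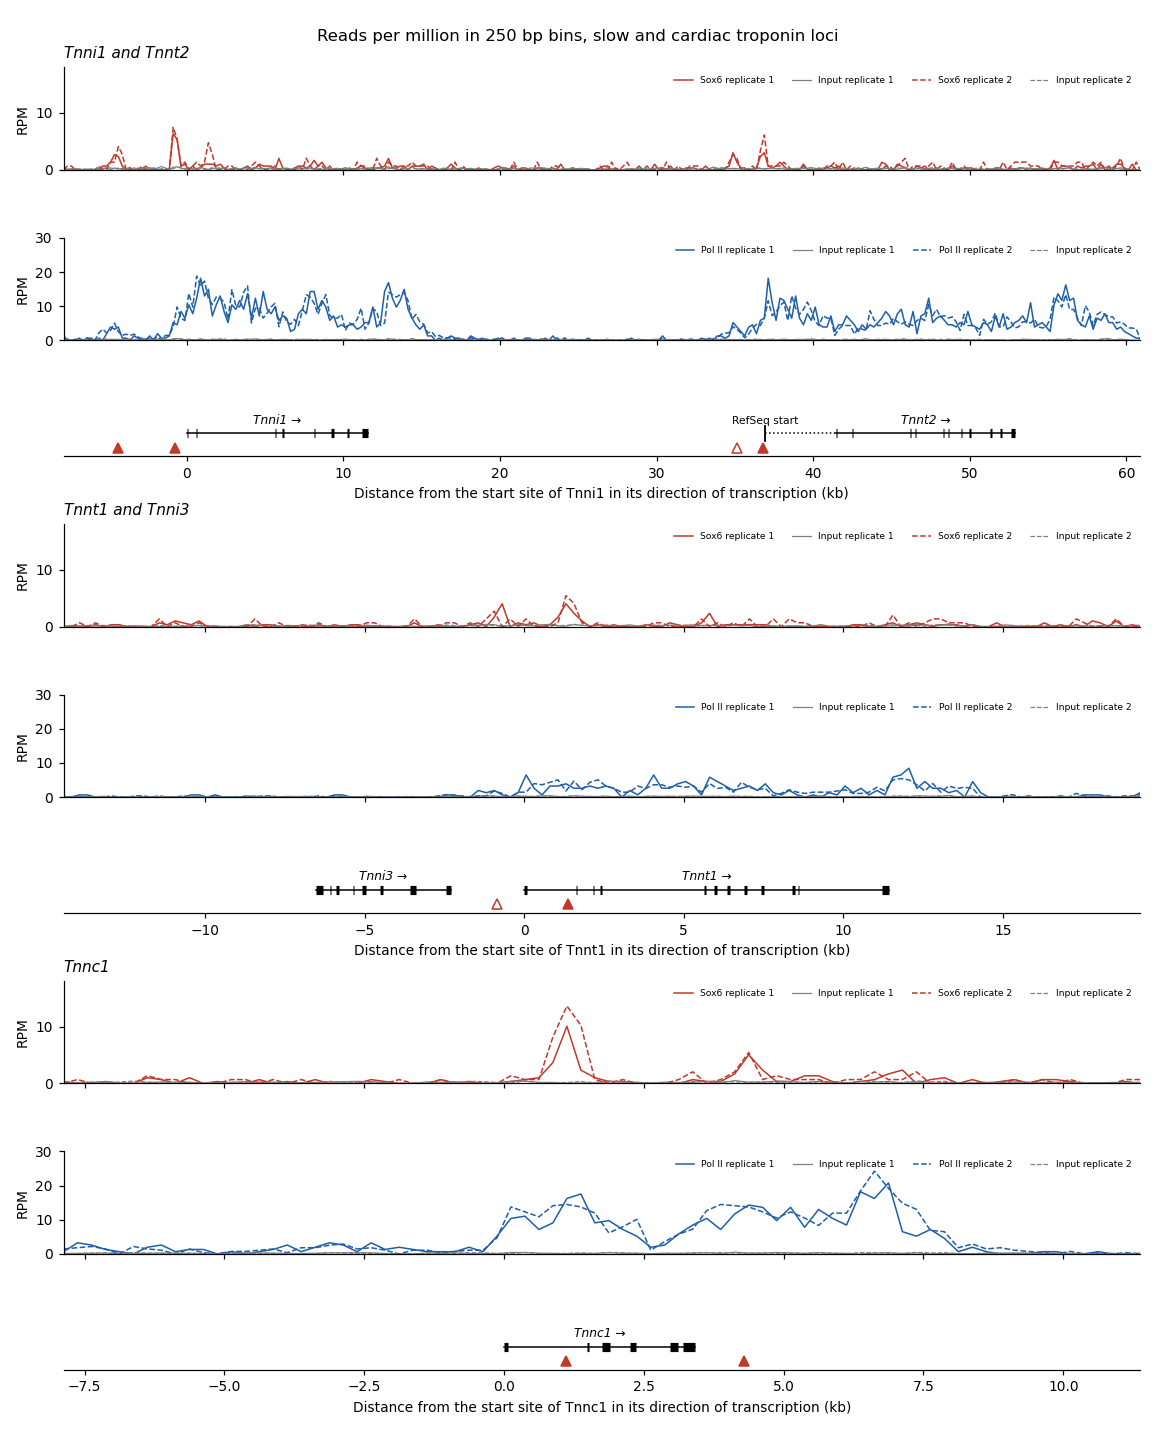
RPM, reads per 1000000 mapped reads, in 250 bp bins along 3 loci, plotted against distance in kb from the start site of the first gene named, in its direction of transcription. Red is Sox6, blue Pol II, grey input (solid line, replicate 1, and dashed line, replicate 2). Boxes are exons, the dotted line runs from the RefSeq start of Tnnt2, and filled triangles mark common Sox6 peaks and open triangles those of the first Sox6 experiment only. The highest bin of the mean Sox6 signal is 11.8 RPM, at Tnnc1.

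The sequences of the 6 common peaks are shown because they are where Sox6 and the troponin genes meet. They are the deposited intervals, read from NCBI Build 37 on the forward strand, and capitals mark ACAAAG or ACAATG, the 2 forms of the Sox core sought, on either strand.
Tnnc1 first intron, chr14:32022542-32022661: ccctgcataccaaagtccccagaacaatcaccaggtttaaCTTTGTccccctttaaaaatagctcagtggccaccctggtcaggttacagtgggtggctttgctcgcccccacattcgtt
Tnnc1 downstream, chr14:32025742-32025841: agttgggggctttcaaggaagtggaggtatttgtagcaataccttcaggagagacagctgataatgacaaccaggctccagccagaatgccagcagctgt
Tnni1 distal upstream, chr1:137691462-137691681: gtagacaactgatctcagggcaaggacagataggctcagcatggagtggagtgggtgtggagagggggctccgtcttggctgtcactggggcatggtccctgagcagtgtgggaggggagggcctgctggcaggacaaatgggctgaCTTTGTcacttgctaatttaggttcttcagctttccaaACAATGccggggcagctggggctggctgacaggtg
Tnni1 proximal upstream, chr1:137695162-137695321: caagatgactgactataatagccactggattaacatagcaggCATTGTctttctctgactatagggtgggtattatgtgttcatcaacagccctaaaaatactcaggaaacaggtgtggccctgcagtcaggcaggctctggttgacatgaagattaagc
Tnnt2 upstream, chr1:137732642-137732841: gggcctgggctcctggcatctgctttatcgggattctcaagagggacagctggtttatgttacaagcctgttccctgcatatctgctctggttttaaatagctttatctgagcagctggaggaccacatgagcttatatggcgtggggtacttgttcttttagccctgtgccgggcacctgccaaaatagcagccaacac
Tnnt1 first intron, chr7:4466142-4466301: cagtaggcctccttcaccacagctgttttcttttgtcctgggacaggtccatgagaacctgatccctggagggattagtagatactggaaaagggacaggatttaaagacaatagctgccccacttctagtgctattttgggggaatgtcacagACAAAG

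A Sox core was present in 4 of the 6 intervals and absent from those at Tnnt2 and downstream of Tnnc1, whereas 52.0% of all 1066 common peaks held one. At Tnnt2 a core, CATTGT on the forward strand, begins just past the edge of the interval. It lies before the first RefSeq start and inside the peak listed for the second Sox6 experiment (chr1:137732692-137732951). The distal Tnni1 interval held 2. Counted along the forward strand, the middle of the core lay at -16 bp from the centre of the Tnnc1 intron peak and at -34 bp from that of the proximal Tnni1 peak. In the Tnnt1 peak the core formed the last bases of the interval, with its middle 78 bp from the centre. E-boxes, CAGCTG or CAGGTG, the sites of myogenic bHLH factors such as MyoD, were in 5 of the 6 intervals (55.5% of all common peaks). CCACA, the Runx core, was in 5 of 6 (60.8%), and GGAATG, the MCAT element of Tead factors, in 1 of 6, at Tnnt1 (23.4%). The MEF2 motif was in none (2.06%). With 6 intervals these counts describe the peaks and were not tested.

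The Tnnc1 intron peak was the strongest of them. In the 450 bp around its centre, 1103 bp after the start site, the Sox6 libraries held 41 and 42 reads, or 13.7 and 28.6 reads per 1000000 mapped reads (RPM), while input held 4 and 12, or 0.182 and 0.495 RPM. Its log2 difference of Sox6 and input was 5.95 ± 0.45, the 10th highest among 1066 common peaks. Pol II had 27.3 and 22.8 RPM in the same window. The second Tnnc1 peak, 827 bp past the end of the gene, had 7.03 and 7.49 RPM of Sox6 against 0.546 and 0.454 in input, a log2 difference of 3.85 ± 0.46. Both Sox6 libraries lay above both input libraries at each of these peaks.

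At Tnni1 the proximal peak, centred at -738 bp from the start, had 11.7 and 12.9 RPM of Sox6 against 0.910 and 0.577 of input (log2 difference 4.07 ± 0.44). The distal peak, at -4408 bp, had 4.02 and 6.81 against 0.319 and 0.412 (3.83 ± 0.51). Of the 2 Tnni1 sites, the proximal had more Sox6 reads in each library, 35 and 19 against 12 and 10. Pol II was also above input there, at 9.75 and 12.7 RPM at the proximal and 6.50 and 6.52 at the distal site.

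The Tnnt2 peak is centred at -4711 bp from the GENCODE start but at -170 bp from the first and -825 bp from the second RefSeq start. It had 5.02 and 8.85 RPM of Sox6 against 0.364 and 0.371 of input (log2 difference 4.15 ± 0.48) and 11.05 and 10.1 of Pol II. The Tnnt1 peak, in the first intron 1385 bp after the start, had 6.70 and 8.85 against 0.364 and 0.577 (4.05 ± 0.46) and 5.20 and 3.62 of Pol II. The common peaks had been called from these same libraries, and 96.7% of 1066 were higher than input in this fit, so their differences from input are a description and no independent test.

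**Figure D3:**
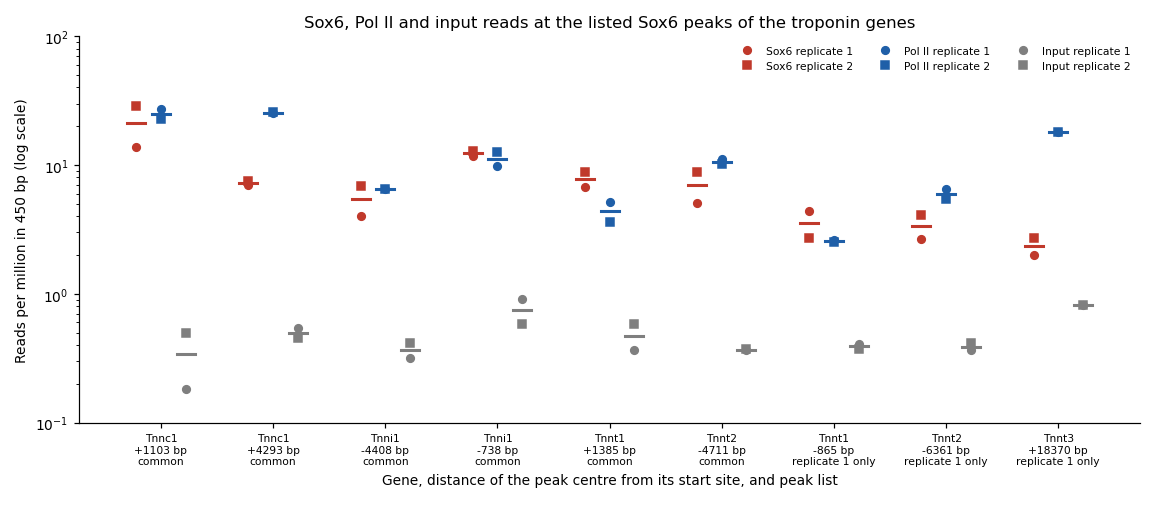
RPM (log scale) in 450 bp around the centre of the 9 Sox6 peaks at troponin genes, with the distance of the centre from the GENCODE start site. Red is Sox6, blue Pol II and grey input, circles replicate 1, squares replicate 2 and bars their mean. At every common peak the lower Sox6 library (4.02 RPM or more) exceeds the higher input library.

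The 3 peaks of the first Sox6 experiment alone could be tested in the second. Of all 2888 peaks of the first experiment, 67.0% were higher than input in the second (exact 2-sided binomial test, Benjamini-Hochberg adjusted over the 2888), which includes the common ones. The Tnnt2 peak at -6361 bp (chr1:137730932-137731251), or -1820 bp from the first RefSeq start, had 6 Sox6 and 10 input reads in the second experiment, 9.91-fold over input by library size (exact adjusted p = 0.00046). The peak between Tnnt1 and Tnni3 (chr7:4468372-4468571), at -865 bp from the Tnnt1 start, had 4 and 9 reads, 7.34-fold (exact adjusted p = 0.0091). Each test sets 1 Sox6 library against 1 input library, so its p covers counting error only. With the deposited interval alone the peak between Tnnt1 and Tnni3 had 1 and 5 reads and was not called (exact adjusted p = 0.46), while the Tnnt2 peak still was. The peak 1159 bp past the end of Tnnt3 (chr7:149703072-149703151) had 4 and 20 reads, 3.30-fold (exact adjusted p = 0.064), and did not pass. The Tnnt3 peak was called with 1 kb around the centre (0.00071) and with repeated positions counted once (0.044).

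Over whole gene bodies Sox6 was low. Of 20991 genes, 5.48% were higher in Sox6 than in input and 346 were lower, with a median log2 difference of 0.20. The number of lower genes depended on the processing, with 0 by quasi-Poisson counts, 1110 with the replicate block and more when either Sox6 library was left out. Among the troponin genes, 3 of 8 were higher: Tnnc1, with 5.88 and 11.2 RPKM of Sox6 (log2 difference 3.38 ± 0.31, adjusted p = 0.0029 by limma, rank 7 of 20991), Tnnt1, with 1.58 and 1.91 RPKM (1.30 ± 0.20, adjusted p = 0.014), and Tnni1, with 1.85 and 2.12 RPKM (1.19 ± 0.18, adjusted p = 0.014). Input at these genes lay between 0.700 and 0.876 RPKM. The differences of the others were 0.97 ± 0.38 at Tnnc2, 0.95 ± 0.45 at Tnni3, 0.92 ± 0.25 at Tnnt3 (adjusted p = 0.054), 0.65 ± 0.28 at Tnnt2 and 0.36 ± 0.50 at Tnni2, none of which passed. Tnnt3 was called in 9 of 18 alternative settings, so its side of the threshold depends on the processing.

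The Sox6 calls of Tnnc1 and Tnnt1 were lost once the reads near Sox6 peaks were left out. The peaks were called on these same Sox6 libraries, so a fall was built into this step, and over all genes the share called higher went from 5.48% to 3.05% (640 of 20990). Without 1 kb around every Sox6 peak of the 3 lists, Tnnc1 kept 9 of its 60 and 8 of its 56 Sox6 reads, and its log2 difference was 1.11 ± 0.43 (adjusted p = 0.14 by limma). Tnnt1 kept 27 of its 54 and 16 of its 32 Sox6 reads and stood at 0.54 ± 0.23 (adjusted p = 0.17). Tnni1, whose peaks lie outside the body, remained at 1.19 ± 0.18 (adjusted p = 0.029). Without Input replicate 1 the Tnnt1 difference was 1.27 (adjusted p = 0.051 by limma), while Tnnc1 and Tnni1 stayed past the threshold. Leaving out Sox6 replicate 1 raised the count to 7 of 8 and leaving out Sox6 replicate 2 to 6 of 8, but the share over all genes rose as well, to 36.5% and 22.3%.

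The Sox6 and Pol II differences over gene bodies subtract the same 2 input libraries, so the relation between them across genes was not read as a result. As a description with that limit, the genes other than troponins were counted where both comparisons had at least 10 reads, which leaves out many short genes of high Pol II, such as those of microRNAs. Sox6 was called higher in 78 of 285 such genes with a Pol II difference between 3.5 and 5 (median Sox6 difference 0.89), the range of Tnni2, Tnnt1 and Tnnt2, and in 12 of 37 above 5 (median 1.31), the range of Tnnc1, Tnnc2, Tnni1 and Tnnt3. It was called in 238 of 9566 genes at 0 or less. The plot of all genes sets both values of each troponin gene side by side.

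**Figure D4:**
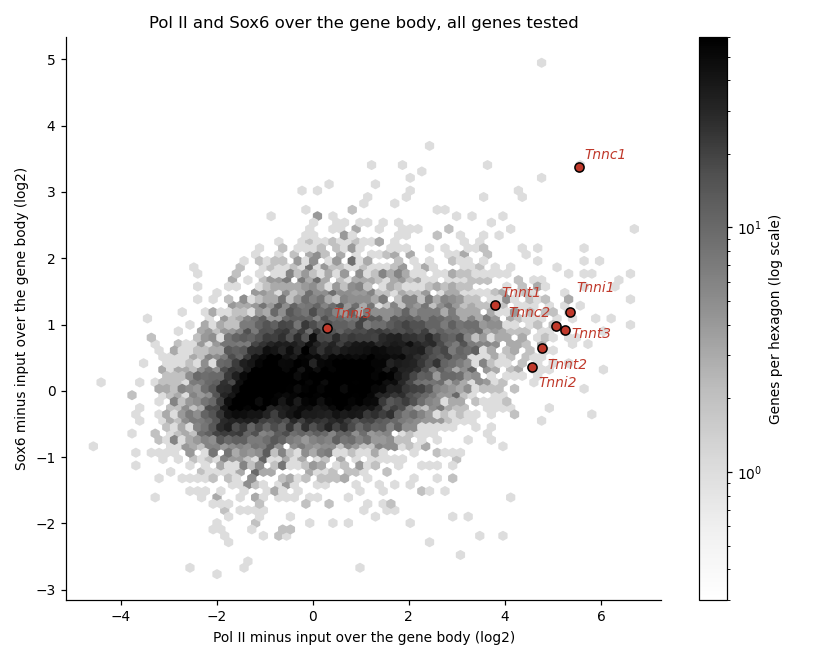
Log2 difference of Sox6 and input (vertical axis) against that of Pol II and input (horizontal axis) over the body of every gene tested. Grey hexagons are counts of genes on a log scale and red circles the 8 troponin genes. Tnnc1 lies at 5.54 for Pol II and 3.38 for Sox6, and Tnni3 at 0.30 and 0.95. Both axes share the input libraries.

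At the start sites Sox6 was near the limit of the counts, with 1 to 7 reads a library at every troponin gene. Tnnt2 alone was called higher, with 5 and 5 Sox6 reads against 13 and 17 in input at its GENCODE start (log2 difference 1.98 ± 0.55, adjusted p = 0.024 by limma), where 2.21% of 18848 start sites were called. The median over all start sites was 0.63, and it moved to 0.29 with 0.25 reads added and to 1.53 with 2 reads added. Tnnt2 was called in 10 of 16 alternative settings. The call was lost without Input replicate 1, without Input replicate 2, with 250 or 1000 bp on either side, with voom weights and with quasi-Poisson counts. Tnni1, at 1.45 ± 0.48 (adjusted p = 0.080 by limma), was called in 7 of 17. At the first RefSeq start of Tnnt2, whose window takes in the common peak called from these libraries, Sox6 had 19 and 15 reads against 17 and 27, a summed ratio of 8.02 (95% exact interval 4.97 to 12.8). At the second RefSeq start the ratio was 2.97 (1.42 to 5.74). The same ratio was 1.38 (0.482 to 3.25) at the Tnnc1 start and 2.48 (1.16 to 4.86) at the Tnni1 start.

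The fast loci had no Sox6 bin comparable to these. The highest 250 bp bin of the mean Sox6 signal was 2.03 RPM along the Tnni2 and Tnnt3 locus and 1.52 along the Tnnc2 locus, against 11.8 at Tnnc1, 6.93 at Tnni1 and Tnnt2 and 4.73 at Tnnt1 and Tnni3. The bins were chosen as the highest and were not tested. In the gap between Tnni2 and Tnnt3 Sox6 had 0.788 and 1.23 RPKM against 0.784 and 0.779 of input. In the gap between Tnni1 and Tnnt2 it had 1.39 and 1.69 against 0.742 and 0.763. That gap holds the common Tnnt2 peak and a peak of the first experiment, called from these same libraries, and the fast gap holds no listed peak. Part of the difference was therefore built in. Pol II also differed, with 11.1 and 11.3 RPKM against 4.85 and 4.59 in the fast gap, and its part was not tested. Pol II in the fast loci is plotted with Sox6.

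**Figure D5:**
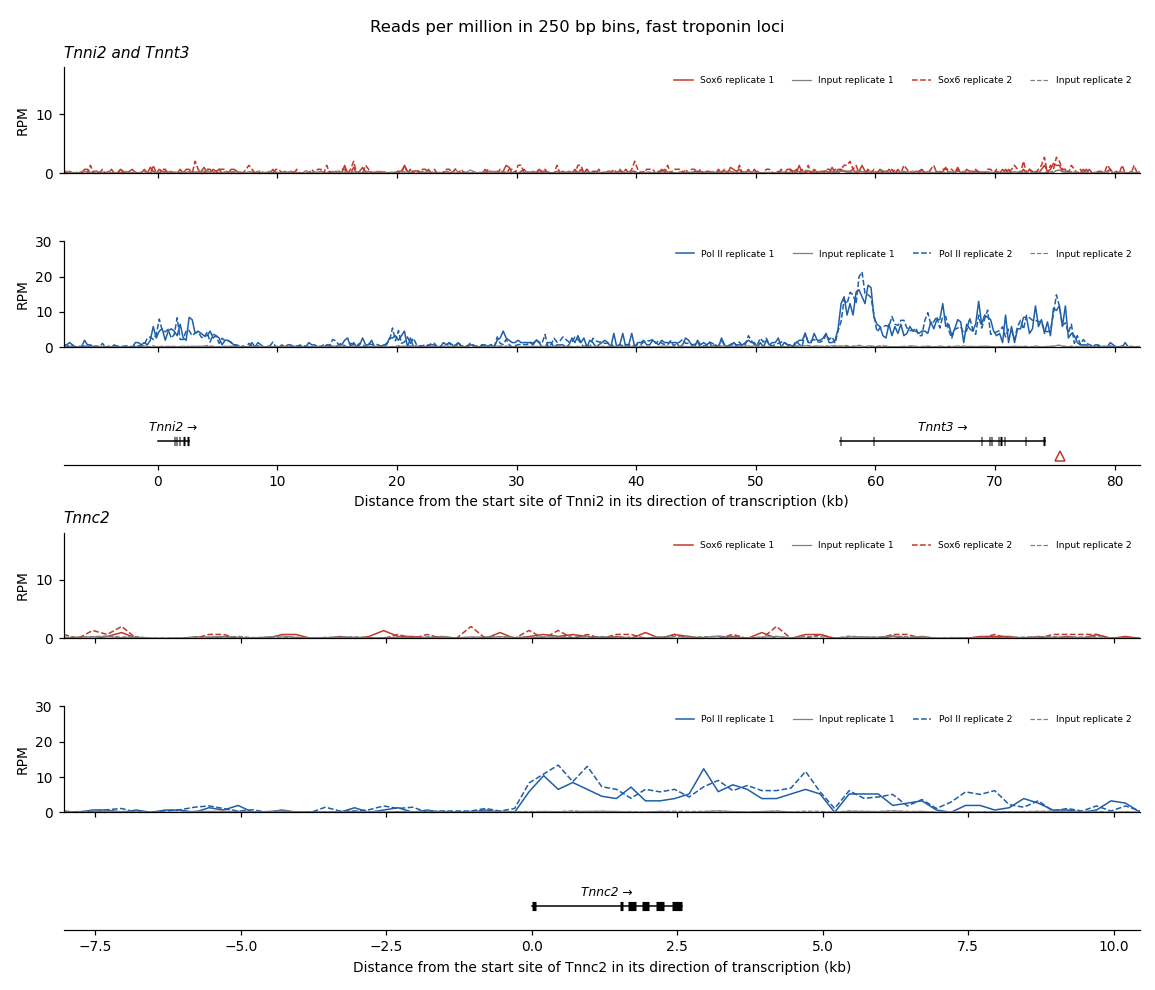
RPM in 250 bp bins along the Tnni2 and Tnnt3 locus and the Tnnc2 locus, on the scales of the plot of slow and cardiac loci, against distance in kb from the start site of the first gene named. Red is Sox6, blue Pol II, grey input (solid line, replicate 1, and dashed line, replicate 2), and the open triangle is the peak of the first Sox6 experiment past Tnnt3. The highest Sox6 bin is 2.03 RPM.

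The study's 6 ChIP-qPCR primer pairs for troponin genes were matched to the genome. Both Tnnc1 pairs fell on the intron peak, so the 6 pairs covered 5 sites, each on a common peak, and none lay on the peak downstream of Tnnc1. One pair a site is shown. They are in lower case, 5' to 3', as the forward and then the reverse primer.
Tnnc1 intron forward: gccaccctggtcaggttaca
Tnnc1 intron reverse: aagctgcatggcctgagaga
Tnni1 distal forward: ggagtggagtgggtgtggag
Tnni1 distal reverse: ccacactgctcagggaccat
Tnni1 proximal forward: ggattaacatagcaggcattgtctt
Tnni1 proximal reverse: tcctgagtatttttagggctgttga
Tnnt1 intron forward: taggcctccttcaccacagc
Tnnt1 intron reverse: ccctccagggatcaggttct
Tnnt2 upstream forward: agctggaggaccacatgagc
Tnnt2 upstream reverse: ggctgctattttggcaggtg

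The amplicons were 98 bp at chr14:32022611-32022708, 70 bp at chr1:137691504-137691573, 82 bp at chr1:137695188-137695269, 70 bp at chr7:4466145-4466214 and 82 bp at chr1:137732755-137732836. Sox6 had 4 and 5 reads in the Tnnc1 amplicon, 1 and 1 in the distal and 11 and 4 in the proximal Tnni1 amplicon, 5 and 3 at Tnnt1 and 3 and 2 at Tnnt2, too few to rank the sites. The fragments cloned by the study were also placed. The Tnni1 upstream fragment, 5201 bp at chr1:137690838-137696038, holds both Tnni1 peaks and had 4.19 and 4.84 RPKM of Sox6 against 1.02 and 1.06 of input. The Tnnc1 fragment, 1331 bp at chr14:32021590-32022920, holds the intron peak and had 13.3 and 24.6 RPKM of Sox6 against 0.957 and 0.868.

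The promoters of Tnnc1, the gene with the highest mean Pol II level under the models used (its range overlapped that of Tnni1), and of Tnni3, the lowest, are shown for comparison, as the 250 bp before the start site in the direction of transcription, with E-box, MCAT and MEF2 matches in capitals.
Tnnc1 promoter, chr14:32021248-32021497, forward strand: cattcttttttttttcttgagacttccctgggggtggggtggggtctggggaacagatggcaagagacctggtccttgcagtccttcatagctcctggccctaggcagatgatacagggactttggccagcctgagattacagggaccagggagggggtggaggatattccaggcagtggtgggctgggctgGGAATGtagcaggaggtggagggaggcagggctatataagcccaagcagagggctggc
Tnni3 promoter, chr7:4474131-4474380, reverse strand: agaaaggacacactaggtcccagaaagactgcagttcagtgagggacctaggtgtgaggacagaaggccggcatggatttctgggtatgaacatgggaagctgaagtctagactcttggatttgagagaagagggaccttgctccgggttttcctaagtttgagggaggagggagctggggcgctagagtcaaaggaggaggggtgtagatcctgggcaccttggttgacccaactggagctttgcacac

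Before the GENCODE starts, the MCAT element GGAATG was in the promoters of Tnnc1 and Tnnt3, where 11.7% of 23057 promoters held it. An E-box was in those of Tnnc2, Tnni1, Tnni2, Tnnt1, Tnnt2 and Tnnt3 (26.6% of all). Before the first RefSeq start of Tnnt2 there were 5 E-box matches, palindromes counted on both strands, 1 MCAT, 1 Sox and 1 Runx match, and before the second there were 0 E-box, 0 MCAT, 1 Sox and 0 Runx matches. Before the GENCODE starts a Sox match was found for Tnnt2 and a Runx match for Tnni1, where 22.6% and 46.7% of all promoters held one. The Tnni3 promoter held none of these, nor a MEF2, Sox or Runx match in this window. These matches describe letters only.

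The other genes of the sarcomere give the background of the pathway. All 16 other thin filament genes tested were higher in Pol II than input over their bodies (39.0% of all genes were), from 6.62 ± 0.20 for Acta1 and 6.59 ± 0.09 for Actc1, the skeletal and cardiac actins, down to 1.34 ± 0.11 for Capza1, a capping protein subunit, and 1.397 ± 0.094 for Nrap. The listed genes Klhl40 and Klhl41 were not matched by symbol. All 4 embryonic or perinatal thick filament genes were higher too, from 6.61 ± 0.08 for Myh3, the embryonic myosin heavy chain, and 6.31 ± 0.11 for Mybph down to 5.01 ± 0.09 for Myh8 and 3.74 ± 0.08 for Myl4. Of the fast thick filament genes 3 of 6 were higher, Mylpf (6.08 ± 0.15) and Myl1 (4.65 ± 0.09) the most, Myh4 stood at -0.41 ± 0.23, and Myh2 was lower at -0.95 ± 0.22, and of the slow or cardiac ones 3 of 8 were higher, a share near that of all genes. The medians of the 4 lists were 3.39, 5.66, 0.63 and 0.21, beside 4.92 for the troponin genes.

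Among the slow or cardiac thick filament genes, Mybpc1, slow myosin-binding protein C, stood at 2.59 ± 0.07 and Myh7b, a slow-tonic myosin heavy chain, at 2.16 ± 0.13. Myl2, the slow and ventricular regulatory light chain, stood at -1.27 ± 0.67 (adjusted p = 0.13 by limma) and Myl3 at -0.95 ± 0.50. Over the body Sox6 was higher than input in 8 of 16 other thin filament genes, 4 of 4 embryonic or perinatal, 1 of 8 slow or cardiac and 0 of 6 fast thick filament genes, beside 5.48% of all genes. These lists also differ in Pol II, by the medians above, and the part of Pol II in the Sox6 counts was not tested.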

How the data were processed

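Sox6, Pol II and input DNA were sequenced by ChIP-seq, with 2 libraries each. Per the study's methods, chromatin was fixed with DSG and then formaldehyde, fragments of 300 to 600 bp were amplified for 18 cycles and read from a single end. The authors mapped reads with Bowtie 0.12.5 to NCBI Build 37 (mm9), kept unique matches and called peaks with SISSRs for each library against input. Peaks common to both Sox6 experiments lay within 50 bp of each other. The deposited files hold positions of mapped reads and of peaks, and any score the authors deposited beside a peak was not used.

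Reads were counted by their 5' end over gene bodies, in 1000 bp around start sites and in 450 bp around peak centres. The model of each gene was its longest complete GENCODE vM1 model with a RefSeq link, or else the longest. This departs from the longest model of any kind, as planned, and was chosen after the files had been seen, so the planned model is given as an alternative. Log2 reads per 1000000 mapped reads (RPM), with 0.5 reads added, were fitted with limma 3.58.1 (R 4.3.3) with a mean trend, each antibody against input, over all features with at least 10 reads in the 4 libraries, with Benjamini-Hochberg adjustment and a threshold of 0.05. The fits were also run on simulated counts with a fixed spread and few true differences. Far more genes differed from input in these data, so that run cannot show that the calls are right. RPKM values are reads per kb per 1000000 mapped reads. Peaks of the first experiment were tested in the second with an exact 2-sided binomial test. Count ratios carry 95% exact intervals, which cover counting error only. Library sizes ran from 1468604 to 24249850 mapped reads, and input replicate 1 had 36 bp reads where the others had 39 bp. Motifs were sought on both strands. Promoters were the 250 bp before the GENCODE starts. RefSeq starts were placed in the build by exact match of the RefSeq table's promoter sequences (GRCm38.p6) and used beside them.

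All 8 genes, all peaks within 20 kb, and the 2 highest and 2 lowest genes of each list by Pol II difference are named. The members and lists were chosen with earlier results of these data known. Alternatives varied windows, model, repeated positions, reads added, filter, scaling, test, replicate block and each library left out.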

Additional observations from a re-analysis of the deposited data

How the results depend on the processing

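Pol II over gene bodies was called at the same 7 troponin genes under every alternative, with Tnni3 added when scaling to background bins, where 13229 genes were higher. Pol II at start sites was called at 15760 genes with 2 reads added, where Tnni3 turned to 1.15 (adjusted p = 0.049 by limma), and at 2684 of only 2905 tested with at least 50 reads. With the longest annotated model, the one first planned, which became an alternative once the files had been seen, Tnni1 turned to -0.31 at its start (adjusted p = 0.84 by limma). The number of genes with higher Sox6 over the body was 2564 with 2 reads added, 2326 with no filter, 2384 with background scaling, 117 by quasi-Poisson counts, 640 without 1 kb around every Sox6 peak (also chosen after seeing the data), and 167 to 7625 with 1 library left out. Sox6 at start sites gave 245 genes with 250 bp and 90 with 1000 bp on either side, 10380 with 2 reads added, 1489 with no filter, 43 of only 794 tested with at least 50 reads, 655 with background scaling, 76 with voom weights, 3 by quasi-Poisson counts, and 1 to 6539 with 1 library left out. Common peaks called numbered 485 of only 521 tested with at least 50 reads, and single-experiment peaks called in the other experiment 902 and 790 with the deposited interval alone. The causes were not tested. Deviations of libraries with equal replicate numbers had correlations from -0.06 to 0.05. Counting noise can hold such values near 0, so they cannot show whether the libraries were paired. With the replicate block Sox6 was higher over 2903 gene bodies and 484 start sites, and Pol II over 8275 bodies and 8619 start sites. Sox6 over the body was then called at 5 of 8 troponin genes, with Tnnt2 and Tnnt3 added. The Sox6 counts are limited by 1 to 7 reads at each troponin start.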

Other observations

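For each troponin gene the most similar other gene was sought over 12 values, the log2 levels of the 6 libraries over the body and around the start. The nearest were Mir341 for Tnnc1 (Euclidean distance 1.32), Myl6 for Tnnc2 (1.23), Myod1 for Tnni1 (1.39), Prkag3 for Tnni2 (1.22), Entpd3 for Tnni3 (0.884), Jph2 for Tnnt1 (1.02), Tmem8c for Tnnt2 (1.08) and Trim72 for Tnnt3 (1.66). Mir341 is a short microRNA gene whose levels rest on few reads, with 33.8 and 15.1 RPKM of Pol II in the 2 libraries, so its match to Tnnc1 is loose. Myod1 encodes a myogenic transcription factor and Jph2 a junctophilin of striated muscle. Tnni1 and Tnnt3 were closer to each other (1.24) than to any other gene, and Tnni3 was 9.30 from the nearest troponin gene, Tnnt1.

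Among the neighbours of the troponin genes, Nisch, 1486 bp from Tnnc1, had a log2 Pol II difference of 2.58 ± 0.09 over its body, and Pkp1, 19135 bp from Tnnt2, one of -0.87 ± 0.16 (adjusted p = 0.0010 by limma). In the 2 kb past the end of Tnni3, toward Tnnt1, Sox6 had 20 and 10 reads, Pol II 10 and 13 and input 32 and 34. By length and library size these were 3.35 and 3.40 RPKM of Sox6, 3.25 and 2.35 of Pol II and 0.728 and 0.701 of input. The peak between Tnnt1 and Tnni3 listed in the first Sox6 experiment, called from these same reads, lies in this stretch.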
